A study of Mus musculus with 11 samples.

Results

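RNA levels of 52 genes that encode the Polycomb, histone H3 lysine 9 (H3K9) and DNA methylation machinery were examined in mouse embryonic fibroblasts with different numbers of intact Actb genes. Actb encodes β-actin, the major cytoplasmic actin. The 52 genes were taken by symbol from a fixed list, out of 46469 symbols in the deposited gene tables: 28 encode Polycomb proteins or their opponents, 14 encode H3K9 methylation proteins and their readers, and 10 encode DNA methylation proteins. RNA sequencing covered 3 libraries of Actb -/- cells (KO), 4 of Actb +/- cells (Het) and 4 of Actb +/+ cells (WT). All cells were from 10.5 day embryos of BALB/c mice, were grown in the same serum-containing medium and gave RNA at 70% confluence. The labels neither describe the Actb allele nor say whether the numbered replicates are separate embryos or cultures, so the p-values measure the spread between these libraries, which may be technical. The KO libraries are numbered 1, 3 and 4, and a KO library 2 was not analysed here.

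Polycomb repressive complex 2 (PRC2) methylates H3 at lysine 27 (H3K27), and Polycomb repressive complex 1 (PRC1) reads that mark and ubiquitinates histone H2A, which together keep developmental genes silent. SUV39H, G9a and SETDB1 enzymes methylate H3K9, the mark that HP1 proteins bind in heterochromatin, while DNA methyltransferases and the maintenance factor UHRF1 place and copy methyl groups on CpG dinucleotides. In fibroblasts these systems hold other lineages' genes, germline genes and the Ink4 and Arf cell cycle inhibitors in check.

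Levels are given as FPKM, fragments normalised to transcript length and to the mapped fragments of the library, as deposited by the authors. Statements on which libraries or groups overlap refer to these values, and of 156 orders of a pair of groups for a gene, 16 changed between overlap and no overlap after scaling and none reversed. Differences are log2 differences of FPKM plus 1 after scaling between libraries, which understates changes of low genes. Folds are on the same scale of FPKM plus 1. "Rose" and "fell" are used for genes with a Benjamini-Hochberg adjusted p under 0.05 in limma, adjusted over all 14948 genes tested. Passing in a comparison refers to this main fit unless an alternative is named. All 52 genes passed the filter on low values. Relative depth was between 60.7% (WT 3) and 125% (WT 4) of WT 1. The authors' interval on a value, taken at the primary chromosome locus of each gene, had a median half-width between 4.22% for Dnmt1 and 49.2% for Ring1.

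The targeted gene matched the labels in all 11 libraries. Actb measured 42.2, 42.8 and 45.4 FPKM in KO, 839 to 888 FPKM in Het and 1074 to 1586 FPKM in WT. The libraries also differed in marks of sex chromosome state and cell identity. Xist, the RNA that coats an inactive X chromosome, measured 45.7 to 52.01 FPKM in Het but at most 0.0526 in KO and at most 0.0599 in WT, and none of 4 Y-linked genes exceeded 0.252 FPKM in any library. Of 16 fibroblast markers, Vim and Fn1 were high in every library, whereas Fap was at or near 0 in every group, Thy1 was listed at 0 in 3 of the 4 WT libraries, and the summed level was 3561 to 4299 FPKM in KO, 2738 to 3153 in Het and 1611 to 2203 in WT. The 7 epithelial markers summed to 0.809 to 0.996 FPKM in KO, 5.62 to 9.92 in Het and 3.08 to 7.80 in WT. All 7 endothelial, 9 of 10 pluripotent cell, 7 of 9 blood cell and 5 of 6 skeletal muscle markers stayed under 1 FPKM in every library. The blood cell markers, of which Ptprc was listed at 0 in every library, summed to 4.50 to 8.72 FPKM in KO, 7.93 to 9.80 in Het and 4.91 to 7.19 in WT, and Cd14 rose in Het (0.79, adjusted p = 0.000782). The 7 neural markers summed to 112 to 116 FPKM in KO, 84.1 to 89.0 in Het and 126 to 137 in WT, with Nes lower in both (-0.27 in KO and -0.98 in Het), Map2 higher in KO (1.44) and lower in Het (-1.42) and Tubb3 higher in Het (1.16) against WT. In bulk RNA, fewer cells of a type and less RNA per cell cannot be told apart, and the part of these differences in the results below was not tested.

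About as many of the 52 genes were called as of all genes. In KO against WT, 15 rose and 8 fell, a share of 44.2%, beside 47.1% of all genes tested. In Het against WT, 16 rose and 8 fell (46.2%), beside 43.8% of all genes. In KO against Het, 13 rose and 8 fell (40.4%), beside 44.2% of all genes. The sizes were modest: 6 genes in KO against WT, 7 in Het against WT and 9 in KO against Het were called with an absolute log2 difference of at least 0.5, beside 25.2%, 19.3% and 23.1% of all genes, and none reached 1 in these comparisons or for Het set against the KO and WT midpoint, beside 7.57%, 4.66%, 6.41% and 3.63% of all genes in these 4 comparisons. These sizes depend on the pseudocount of 1: with 0.1, Dnmt3b was at -1.02 in KO against WT, and Kdm6b at 1.03 and Cbx7 at -1.08 in Het against WT. The median log2 difference over the 52 was 0.16 in KO against WT and 0.08 in Het against WT, and both medians over all genes were 0.01. The KO and Het comparisons share the WT libraries, so their values stand side by side below without a measure of likeness between them.

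**Figure D1:**
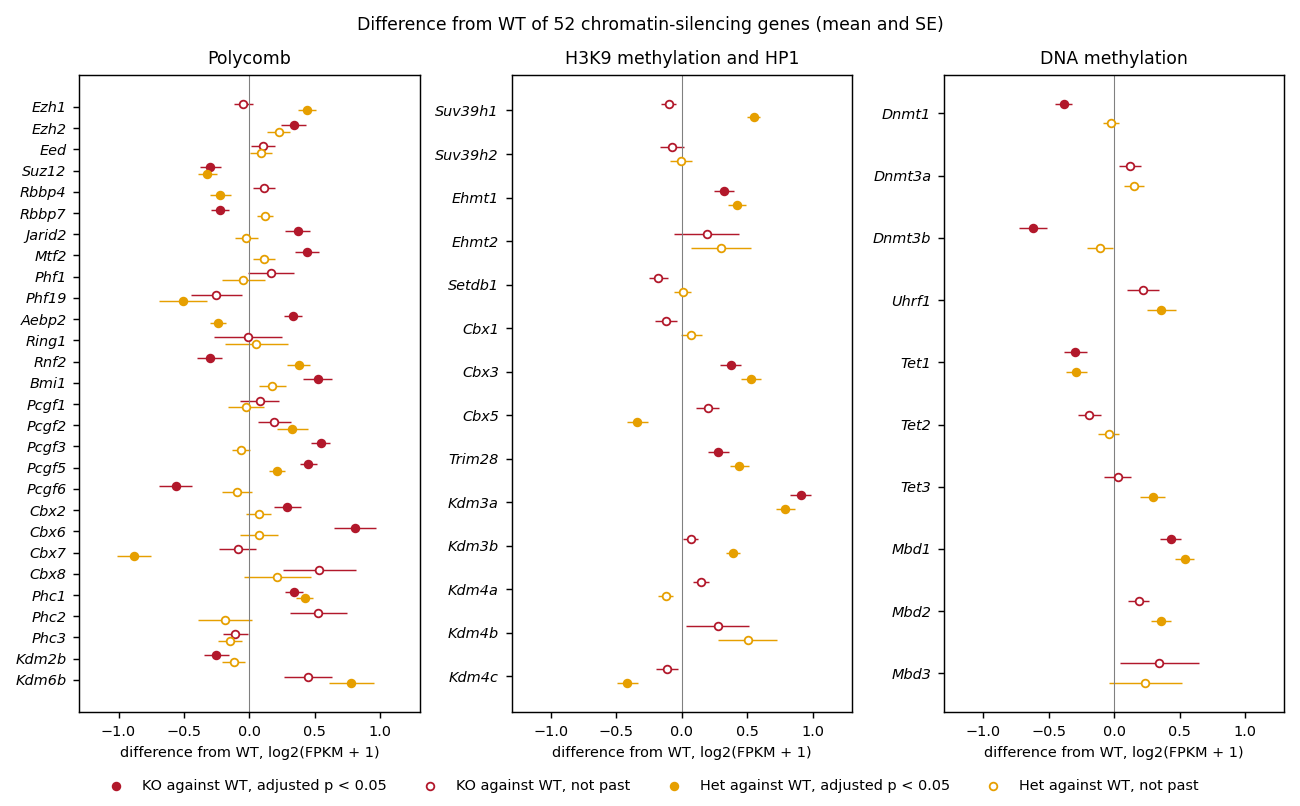
Log2 difference of FPKM plus 1 for each of the 52 genes (rows, ordered by class and role) in KO against WT and in Het against WT, with standard errors as bars and filled points for adjusted p under 0.05. The points run between -0.62 (Dnmt3b) and 0.91 (Kdm3a) in KO against WT and between -0.88 (Cbx7) and 0.79 (Kdm3a) in Het against WT.

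By class, Polycomb genes held 10 that rose and 5 that fell of 28 in KO against WT (53.6% called, beside 47.1% of all genes), and 6 and 5 in Het against WT (39.3%, beside 43.8%). H3K9 genes held 4 that rose and none that fell of 14 in KO against WT (28.6%), and 6 and 2 in Het against WT (57.1%). DNA methylation genes held 1 that rose and 3 that fell of 10 in KO against WT (40%), and 4 and 1 in Het against WT (50%). Of all genes, 23.3% were higher and 23.8% lower in KO against WT, and 21.7% and 22.1% in Het against WT. The number of genes that fell in KO against WT depended on single libraries and was 5 without KO 3, KO 4 or WT 3, and in Het against WT it was 5 without WT 2 or WT 3. Of all genes, 5788 to 6287 and 5750 to 5867 were called in these fits, beside 7042 and 6546 in the main fits. Without scaling between libraries, 13 rose and 13 fell in KO against WT and 10 rose and 16 fell in KO against Het. Of all 14951 genes tested without scaling, 7401 and 7050 were called in these comparisons.

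Within PRC2, Suz12 fell in both comparisons with WT, Ezh2 and 3 accessory genes rose in KO, and Ezh1 rose in Het. Ezh2, the main H3K27 methyltransferase of dividing cells, measured 52.8, 52.3 and 47.4 FPKM in KO, 50.8, 52.9, 49.6 and 48.7 in Het and 50.4, 41.2, 41.8 and 38.9 in WT. Only WT 1 reached into the KO range, and Ezh2 rose in KO (log2 difference 0.34, SE 0.09, adjusted p = 0.0125), a call lost with upper quartile scaling (adjusted p = 0.0741). It did not pass the threshold in Het (log2 difference 0.22, SE 0.09, adjusted p = 0.0599) but passed in 4 of 22 alternatives there, namely with a replicate block, with a correction for transcript GC content, with no scaling and without WT 1 (adjusted p over all 22 was 0.000762 to 0.281). Ezh1, the methyltransferase of resting and differentiated cells, was lower throughout, at 5.48, 5.47 and 5.31 FPKM in KO, 9.37, 8.61, 8.27 and 8.14 in Het and 5.58, 6.63, 5.87 and 6.12 in WT. All Het libraries lay above all others, and Ezh1 rose in Het (log2 difference 0.44, SE 0.07, adjusted p = 0.00039), so that its mean share of the Ezh1 and Ezh2 FPKM sum was 9.7% in KO, 14.5% in Het and 12.4% in WT.

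Suz12, the scaffold of PRC2, fell in both. It measured 51.98, 53.0 and 51.8 FPKM in KO, 54.6, 57.8, 55.6 and 53.6 in Het and 76.4, 67.6, 71.7 and 61.6 in WT. The WT libraries did not overlap with either other group (log2 difference -0.30, SE 0.08, adjusted p = 0.00894 in KO; -0.32, adjusted p = 0.00406 in Het). Eed, which binds the H3K27 methyl mark, passed in neither comparison and stayed between 18.4 and 24.2 FPKM in all libraries. The histone chaperone gene Rbbp7, on chromosome X, measured 151, 152 and 149 FPKM in KO, 204, 209.6, 206 and 207 in Het and 205, 177, 198 and 178 in WT. It fell in KO against WT (log2 difference -0.23, SE 0.07, adjusted p = 0.0168), a call lost in a fit of only the groups compared or without KO 4 (adjusted p = 0.0566 to 0.0596). Its close relative Rbbp4 had 167 to 192 FPKM in KO, 145 to 164 in Het and 162 to 194 in WT. Rbbp4 fell in Het against WT (-0.22, adjusted p = 0.0421), lost with no filter on low values, with no mean-variance trend, in a fit of only the groups compared or without KO 3, Het 1, Het 3, Het 4, WT 1, WT 2 or WT 3 (adjusted p = 0.0517 to 0.109). The Rbbp4 value sums a locus on chromosome 4 and one of the same symbol on an alternate sequence.

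Among the accessory subunits, which direct PRC2 to its targets, 3 of 5 rose in KO against WT and 2 of 5 fell in Het against WT. Of all genes, 23.3% were higher in KO against WT and 22.1% lower in Het against WT. Counts in so few genes were not tested against these shares. Aebp2 (gene16237, chromosome 6, 140622454 to 140677634), a zinc finger cofactor that stimulates PRC2, measured 45.3, 43.3 and 42.3 FPKM in KO, 30.0, 31.8, 33.0 and 30.2 in Het and 40.2, 36.6, 35.6 and 35.3 in WT. The 3 groups did not overlap, with KO highest and Het lowest: Aebp2 rose in KO (log2 difference 0.33, SE 0.07, adjusted p = 0.00224) and fell in Het (log2 difference -0.24, SE 0.06, adjusted p = 0.0104), and KO against Het gave 0.58 (SE 0.07, adjusted p = 5.71e-05). Mtf2, a Polycomb-like protein that binds CpG-rich DNA, had 29.6, 26.1 and 26.5 FPKM in KO, 24.9, 24.5, 21.3 and 22.7 in Het and 23.8, 20.4, 21.6 and 19.97 in WT. All KO values were above all others, and Mtf2 rose in KO against WT (log2 difference 0.44, SE 0.09, adjusted p = 0.00217). Jarid2, a DNA-binding cofactor and itself a PRC2 substrate, was low, at 3.70 to 4.15 FPKM in KO, 2.64 to 3.23 in Het and 2.63 to 3.71 in WT, and rose in KO against WT (0.37, adjusted p = 0.00889). Phf19, another Polycomb-like protein, measured 7.89, 6.76 and 8.20 FPKM in KO, 5.80, 9.61, 6.42 and 5.56 in Het and 7.11, 12.6, 9.34 and 11.3 in WT. Its groups overlapped, since Het 2 stood above WT 1 and WT 3, and its fall in Het (log2 difference -0.51, SE 0.18, adjusted p = 0.0407) was lost with no filter on low values, in a fit of only the groups compared or without KO 1, KO 3, KO 4, Het 1, Het 3, Het 4, WT 2, WT 3 or WT 4 (adjusted p = 0.0503 to 0.111). The third Polycomb-like gene, Phf1, passed in no comparison and ranged between 4.43 and 8.64 FPKM.

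The catalytic subunit of PRC1 moved in opposite directions in KO and Het. Rnf2 (gene1858, chromosome 1, 151469406 to 151500923), which encodes RING1B, the E3 ligase for H2A, measured 24.8, 22.4 and 22.1 FPKM in KO, 40.2, 42.9, 38.0 and 41.2 in Het and 35.1, 29.4, 32.2 and 27.1 in WT. No groups overlapped, and KO was lowest and Het highest, although after scaling KO 1, at 26.5, was above WT 4, at 26.2. Rnf2 fell in KO against WT (log2 difference -0.31, SE 0.10, adjusted p = 0.0222), a call lost in a fit of only the groups compared or without KO 3, KO 4 or WT 3 (adjusted p = 0.0538 to 0.082), and rose in Het against WT (log2 difference 0.38, SE 0.09, adjusted p = 0.00549). KO against Het differed by -0.68 (SE 0.10, adjusted p = 0.000177). Its paralog Ring1 was not past the threshold and ranged between 1.92 and 6.18 FPKM within WT alone. Ring1 has 4 listed loci, 3 of them on alternate sequences, and how reads were divided among them is uncertain.

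PCGF subunits define the variants of PRC1, and 3 of 6 rose and 1 fell in KO against WT, beside 23.3% and 23.8% of all genes. Pcgf3 (gene12650, chromosome 5, 108461215 to 108503099), a subunit of the variant PRC1 that lacks chromobox readers, measured 40.0, 38.4 and 35.9 FPKM in KO, 25.8, 28.5, 25.8 and 26.1 in Het and 29.4, 26.7, 28.4 and 26.3 in WT. KO stood above both other groups, and Pcgf3 rose in KO against WT (log2 difference 0.54, SE 0.07, adjusted p = 0.000107) and was not past the threshold in Het against WT (-0.07, adjusted p = 0.457). Pcgf5, its close relative, had 28.6, 25.7 and 26.1 FPKM in KO, 25.4, 24.7, 23.2 and 23.7 in Het and 20.7, 20.7, 21.95 and 19.7 in WT. No groups overlapped, with KO highest and WT lowest, and Pcgf5 rose in KO (log2 difference 0.45, SE 0.07, adjusted p = 0.000246) and also rose in Het (0.21, adjusted p = 0.0186), a call lost with upper quartile scaling or without Het 1 or Het 2 (adjusted p = 0.0507 to 0.184). Bmi1 (gene3002, chromosome 2, 18677018 to 18686629), the subunit of canonical PRC1 known for repressing the Ink4 and Arf genes, measured 30.6, 33.0 and 29.0 FPKM in KO, 25.2, 26.9, 25.99 and 25.8 in Het and 27.2, 22.3, 23.3 and 18.8 in WT. Every KO library was above every WT library, and Bmi1 rose in KO against WT (log2 difference 0.52, SE 0.11, adjusted p = 0.00256). In KO against Het, Bmi1 gave 0.34, adjusted p = 0.0252, lost with no filter on low values, with no scaling or without KO 1, KO 3, Het 1 or Het 4 (adjusted p = 0.0515 to 0.096).

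Pcgf6 went the other way. This subunit of the PRC1 variant that works with E2F6 and MGA measured 10.4, 8.77 and 8.12 FPKM in KO, 13.7, 15.7, 11.9 and 14.6 in Het and 16.8, 15.4, 14.8 and 12.7 in WT. KO lay below all Het and WT libraries, and Pcgf6 fell in KO against WT (log2 difference -0.56, SE 0.12, adjusted p = 0.00332). Pcgf2 (Mel18) rose in Het only as a marginal call (0.33, adjusted p = 0.0456), lost with no filter on low values, with no scaling, with upper quartile scaling, in a fit of only the groups compared or without KO 1, KO 3, KO 4, Het 1, Het 3, Het 4, WT 1 or WT 3 (adjusted p = 0.0555 to 0.121), with 11.5 to 13.9 FPKM in Het against 7.99 to 12.8 in WT. Pcgf1 passed in no comparison. Within the FPKM sum of the 6 PCGF genes, the mean share of Pcgf3 was 31.5% in KO, 24.4% in Het and 27.2% in WT, and that of Pcgf6 was 7.5%, 12.8% and 14.6% in the same groups.

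The chromobox (CBX) proteins give canonical PRC1 its binding to H3K27 methylation. Cbx6 and Cbx7 lie near each other on chromosome 15 and are read from the same strand. Their promoter windows are shown because the genes lie close together and both promoters are rich in CpG, the dinucleotide that DNA methylation acts on. They are taken from RefSeq (GRCm38.p6, minus strand), at chr15:79834284-79834583 for Cbx6 and chr15:79932597-79932896 for Cbx7, with CpG in capitals.
Cbx6: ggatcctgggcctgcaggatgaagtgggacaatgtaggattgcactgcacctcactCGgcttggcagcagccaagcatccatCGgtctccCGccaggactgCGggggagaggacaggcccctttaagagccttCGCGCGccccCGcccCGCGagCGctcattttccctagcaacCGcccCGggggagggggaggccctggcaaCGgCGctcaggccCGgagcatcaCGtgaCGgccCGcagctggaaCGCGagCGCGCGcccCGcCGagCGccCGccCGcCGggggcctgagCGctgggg
Cbx7: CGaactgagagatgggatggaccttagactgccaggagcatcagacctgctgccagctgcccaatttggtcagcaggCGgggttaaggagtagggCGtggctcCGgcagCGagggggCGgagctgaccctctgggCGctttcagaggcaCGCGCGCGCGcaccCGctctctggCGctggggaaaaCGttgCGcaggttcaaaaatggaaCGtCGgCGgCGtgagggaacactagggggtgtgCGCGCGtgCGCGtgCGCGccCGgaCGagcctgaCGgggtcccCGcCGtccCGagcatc
The Cbx6 window holds 31 CpG and the Cbx7 window 33, each in 300 bases. The Cbx7 window lies inside the deposited Cbx7 locus, which runs to 79971149, and not at the upstream end of that locus. The median over 32851 RefSeq promoter windows of this length was 7, and over the 68 windows matched to 45 of the 52 genes it was 24.

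Cbx6 (gene36935, chromosome 15, 79823898 to 79834333) had the highest FPKM of the 4 Polycomb chromobox genes in every library. It measured 40.1, 44.9 and 52.7 FPKM in KO, 28.0, 27.9, 31.2 and 29.9 in Het and 21.3, 32.9, 22.8 and 36.0 in WT. All KO libraries were above all others, while WT spread widely and WT 2 and WT 4 were above every Het library. Cbx6 rose in KO against WT (log2 difference 0.80, SE 0.16, adjusted p = 0.0017, 1.75-fold) and did not pass in Het against WT (0.07, adjusted p = 0.724).

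Cbx7 (gene36938, chromosome 15, 79915804 to 79971149) gave a different pattern as a sum over its loci. It measured 5.06, 4.76 and 5.97 FPKM in KO, 2.95, 2.65, 3.48 and 2.33 in Het and 4.60, 6.01, 6.25 and 7.65 in WT. All Het libraries lay below the others, and the summed level fell in Het against WT (log2 difference -0.88, SE 0.13, adjusted p = 0.000298). That difference was not seen at the chromosome 15 locus, where FPKM was 0.976 to 1.304 in KO, 0.934 to 1.34 in Het and 1.01 to 1.53 in WT. It lay in a locus of the same symbol on an alternate sequence, with 3.69 to 4.66 FPKM in KO, 1.39 to 2.13 in Het and 3.59 to 6.12 in WT. With the chromosome 15 locus alone, Het against WT gave -0.04 (adjusted p = 0.752), whereas 21 of the 22 alternatives kept the call, with adjusted p between 2.74e-05 and 0.752 over all of them. The reads behind the split between the loci were not tested, so the Cbx7 call is uncertain.

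Cbx2, a reader that compacts chromatin, was close to the threshold. It measured 7.77 to 8.60 FPKM in KO, 6.97 to 7.97 in Het and 5.93 to 8.83 in WT, and its rise in KO (0.29, adjusted p = 0.0391) was lost with no filter on low values, with no scaling, with upper quartile scaling, in a fit of only the groups compared, with a replicate block, with a GC correction or without KO 1, KO 3, KO 4, Het 1, Het 2, WT 1, WT 2 or WT 3 (adjusted p = 0.0513 to 0.232). Cbx8 passed in no comparison. Its WT values were 2.89, 5.38, 3.402 and 8.51 FPKM.

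**Figure D2:**
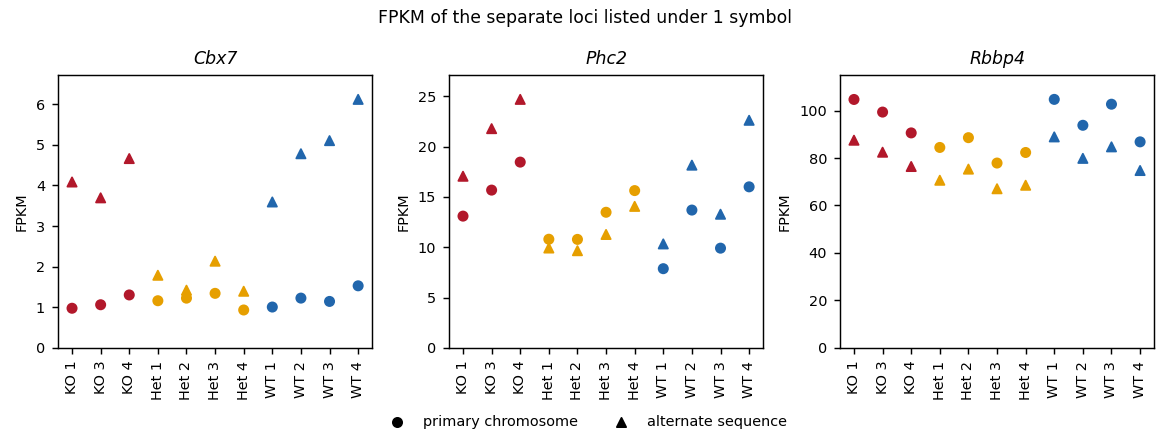
FPKM of the Cbx7, Phc2 and Rbbp4 loci in each library, with the chromosome locus as circles and the alternate-sequence locus as triangles. At the chromosome 15 locus of Cbx7 all groups overlap, and at its alternate-sequence locus the 4 Het libraries, at 1.39 to 2.13 FPKM, lie below all KO and WT libraries.

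The polyhomeotic proteins polymerise and cluster PRC1. Phc1 measured 8.52, 8.69 and 9.15 FPKM in KO, 9.65, 9.93, 10.4 and 10.4 in Het and 6.31, 7.30, 7.23 and 8.15 in WT. WT was below both other groups, and Phc1 rose in KO (log2 difference 0.34, SE 0.07, adjusted p = 0.00224) and in Het (log2 difference 0.42, SE 0.07, adjusted p = 0.000388). Phc2, also summed over a chromosome locus and one on an alternate sequence, measured 30.2, 37.5 and 43.2 FPKM in KO, 20.7, 20.4, 24.8 and 29.7 in Het and 18.2, 31.9, 23.2 and 38.6 in WT. WT 2 and WT 4 reached into the KO range, so KO against WT did not pass (0.53, adjusted p = 0.0706). KO against Het passed (log2 difference 0.71, SE 0.22, adjusted p = 0.0213), but not with the chromosome 4 locus alone (0.40, adjusted p = 0.141), and the call was also lost with no filter on low values, with no scaling or without KO 3, KO 4, Het 1 or Het 2 (adjusted p = 0.0529 to 0.0855). Phc3 passed in no comparison and ranged between 8.08 and 11.5 FPKM.

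Of the remaining Polycomb genes, Kdm2b recruits variant PRC1 to unmethylated CpG islands. It had 10.6, 12.5 and 13.4 FPKM in KO, 14.6, 13.3, 15.0 and 14.9 in Het and 14.3, 15.1, 14.8 and 19.0 in WT. KO was below WT in every library, with a fall at the edge of the threshold (-0.25, adjusted p = 0.0483) that was lost with no filter on low values, with no mean-variance trend, in a fit of only the groups compared or without KO 1, KO 3, Het 1, Het 2, Het 3, Het 4, WT 2, WT 3 or WT 4 (adjusted p = 0.0514 to 0.192). Kdm6b (JMJD3), which removes H3K27 methylation, measured 2.98, 2.9998 and 3.26 FPKM in KO, 3.74, 4.07, 5.34 and 4.75 in Het and 1.46, 2.42, 1.57 and 3.56 in WT. Every Het library was above every WT library, and Kdm6b rose in Het against WT (log2 difference 0.78, SE 0.17, adjusted p = 0.00392, 1.72-fold in FPKM plus 1). Its mean FPKM as deposited was 4.48 in Het and 2.25 in WT. KO against WT did not pass (0.45, adjusted p = 0.0711), and without WT 4, the highest WT library, it did (0.61, adjusted p = 0.00392). Over all alternatives the adjusted p of Kdm6b in KO against WT ranged between 0.00392 and 0.17.

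**Figure D3:**
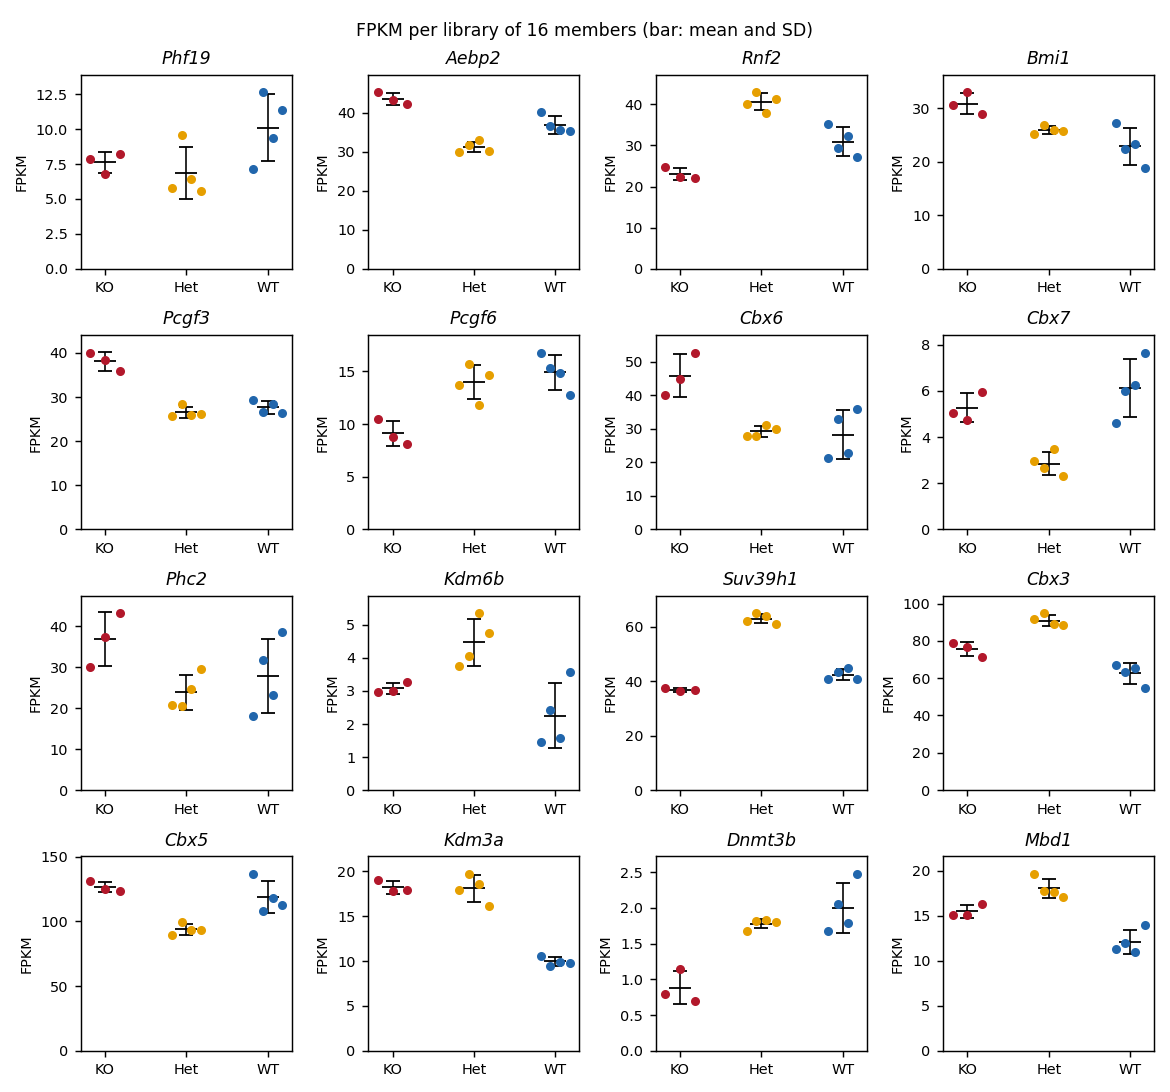
FPKM per library of genes called with an absolute log2 difference of at least 0.5 in any comparison, as points by group with the group mean as a long line and the SD as bars. Rnf2 and Suv39h1 are highest in the 4 Het libraries, Cbx6 and Pcgf3 in the 3 KO libraries, and Kdm3a is lowest in the 4 WT libraries at 9.50 to 10.6 FPKM.

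Among the H3K9 methyltransferases, Suv39h1 and Ehmt1 rose in Het and Ehmt1 alone rose in KO. Suv39h1 (gene43734, chromosome X, 8061171 to 8074760) encodes the enzyme that methylates H3K9 at pericentric heterochromatin. It measured 37.5, 36.4 and 36.6 FPKM in KO, 62.2, 64.9, 63.9 and 61.1 in Het and 40.8, 43.5, 44.7 and 40.9 in WT. The 4 Het libraries stood above all 7 others, and the KO libraries were below those of WT as deposited but overlapped with them after scaling. Suv39h1 rose in Het against WT (log2 difference 0.55, SE 0.05, adjusted p = 8.56e-06, 1.46-fold), was not past the threshold in KO against WT (-0.10, adjusted p = 0.148), and differed between KO and Het by -0.65 (SE 0.05, adjusted p = 3.71e-06).

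Suv39h1 and Rbbp7 are the X-linked genes among the 52. Of 505 X-linked genes tested, 177 rose and 67 fell in Het against WT, with a median log2 difference of 0.13, and 15.2% were higher by at least 0.5. Of 12914 autosomal genes, 2762 rose and 2979 fell, with a median of 0.00, and 12.01% were higher by at least 0.5. Kdm6a, an X-linked H3K27 demethylase gene that is not one of the 52, measured 7.58 to 8.38 FPKM in KO, 14.8 to 16.8 in Het and 6.02 to 7.14 in WT. The Xist level and the Het genotype cannot be told apart in these libraries, and the part of X chromosome dosage in the Suv39h1 difference was not tested.

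Suv39h2, the autosomal paralog, passed in no comparison and measured 6.53 to 8.75 FPKM over all libraries. Ehmt1 (GLP), which forms a heterodimer with G9a, had 13.0, 14.5 and 12.8 FPKM in KO, 15.3, 15.8, 16.3 and 15.1 in Het and 10.7, 12.6, 10.3 and 11.8 in WT. WT was below both other groups, and Ehmt1 rose in KO (log2 difference 0.32, SE 0.07, adjusted p = 0.00455) and in Het (log2 difference 0.42, SE 0.07, adjusted p = 0.000595). Ehmt2 (G9a) was not past the threshold in any comparison of the main fit, and its WT libraries alone spread over 18.1 to 46.0 FPKM, summed over 4 listed loci. In Het against WT it passed in 2 of 22 alternatives, with a GC correction (0.17, adjusted p = 0.0276) and without WT 4 (0.52, adjusted p = 0.0314). Setdb1, the H3K9 methyltransferase recruited to retroelements, measured 15.7 to 17.1 FPKM in KO, 19.7 to 21.4 in Het and 18.3 to 21.5 in WT, and KO against WT did not pass (-0.18, adjusted p = 0.0616). Trim28 (KAP1), the corepressor that recruits Setdb1 and HP1, measured 86.7, 84.2 and 84.1 FPKM in KO, 103, 98.8, 105 and 103 in Het and 62.4, 84.3, 73.2 and 81.6 in WT. It rose in Het (0.44, adjusted p = 0.000803), where all values exceeded those of WT, a call lost with a GC correction (adjusted p = 0.0621). It also rose in KO (0.28, adjusted p = 0.0156), a call lost with no scaling, in a fit of only the groups compared, with a GC correction or without KO 1 (adjusted p = 0.0549 to 0.725).

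The HP1 readers changed unequally. Cbx3 (gene14574, chromosome 6, 51470616 to 51483704), which encodes HP1γ, the form found also in transcribed genes, measured 78.9, 76.7 and 71.3 FPKM in KO, 91.5, 94.7, 89.1 and 88.3 in Het and 67.1, 63.1, 65.4 and 54.5 in WT. The groups did not overlap, and Cbx3 rose in KO (log2 difference 0.37, SE 0.08, adjusted p = 0.00358) and in Het (log2 difference 0.53, SE 0.08, adjusted p = 0.000264). Cbx5 (gene37602, chromosome 15, 103191546 to 103239904), which encodes HP1α of pericentric heterochromatin, measured 131, 125 and 124 FPKM in KO, 89.7, 99.6, 93.7 and 93.1 in Het and 137, 108, 118 and 113 in WT. Het was below all other libraries, and Cbx5 fell in Het against WT (log2 difference -0.34, SE 0.08, adjusted p = 0.00546). KO against Het gave log2 difference 0.53, SE 0.09, adjusted p = 0.000448, and KO against WT did not pass (0.20, adjusted p = 0.0834). Cbx1 (HP1β) passed in no comparison. In the HP1 sum, the mean share of Cbx5 was thus 46.1% in KO, 34.2% in Het and 44.6% in WT, and that of Cbx3 was 27.5% in KO, 33.1% in Het and 23.5% in WT.

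**Figure D4:**
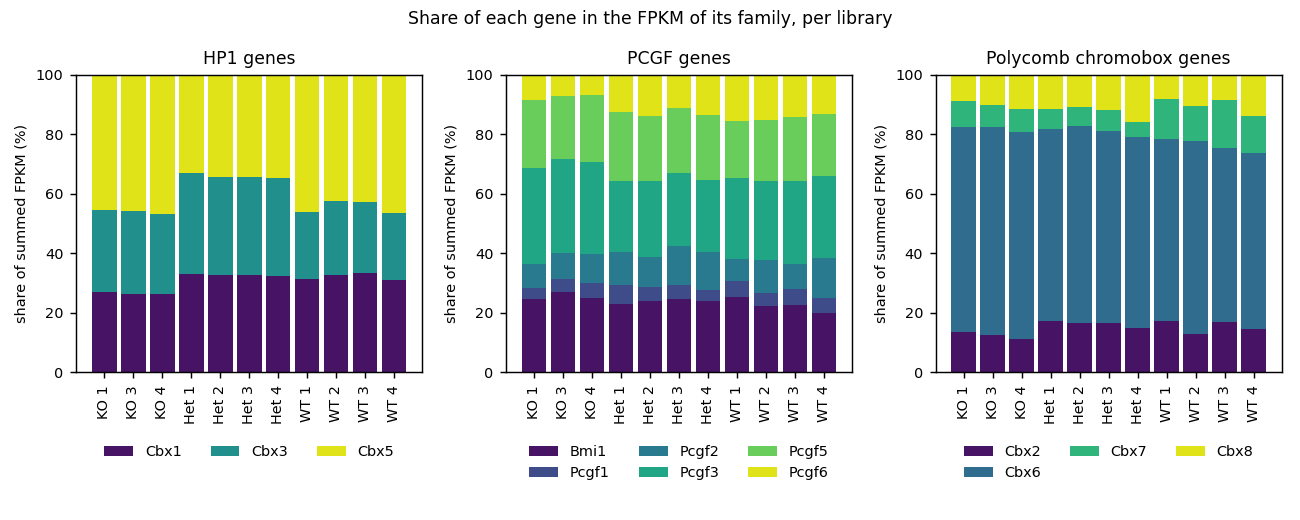
Share of each gene in the FPKM sum of its family, in percent, for the HP1, PCGF and Polycomb chromobox genes in every library of KO, Het and WT. In the HP1 family the Cbx5 share is 33.1 to 34.6% in the Het libraries, below all KO and WT libraries.

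Among H3K9 demethylases, Kdm3a (gene15033, chromosome 6, 71588970 to 71633297), which removes mono- and dimethyl marks and is known as a hypoxia-inducible gene, had the largest positive difference of the 52 genes in both comparisons with WT. In Het against WT this rank over Kdm6b (0.78) depended on the pseudocount of 1. With 0.1, Kdm6b was at 1.03, while Kdm3a was at most 0.85 in any alternative. Kdm3a measured 19.07, 17.8 and 17.9 FPKM in KO, 17.97, 19.7, 18.6 and 16.2 in Het and 10.6, 9.50, 9.95 and 9.81 in WT. The 7 libraries with an altered Actb gene, at 16.2 FPKM or more, were all above the 4 WT libraries, at 10.6 or less. Kdm3a rose in KO (log2 difference 0.91, SE 0.08, adjusted p = 5.12e-06, 1.87-fold) and in Het (log2 difference 0.79, SE 0.07, adjusted p = 1.06e-05, 1.73-fold), and KO against Het did not pass (0.11, adjusted p = 0.272). Its paralog Kdm3b rose in Het against WT (0.39, adjusted p = 0.000192), with 14.3, 14.1 and 13.6 FPKM in KO, 19.3, 18.3, 20.5 and 18.3 in Het and 13.7, 14.2, 14.5 and 14.7 in WT. All Het values of Kdm3b were above those of the other groups. Kdm4c, which removes the trimethyl mark, fell in Het against WT (-0.42, adjusted p = 0.00133), with 11.1, 11.1 and 10.2 FPKM in KO, 9.67, 9.36, 9.55 and 8.34 in Het and 13.6, 12.5, 12.8 and 11.5 in WT, and its Het libraries lay below all others. Kdm4a passed in KO against Het (0.27, adjusted p = 0.00568; 0.17 with no scaling) but in neither comparison with WT, and Kdm4b passed in none, with WT values of 3.11, 5.48, 3.57 and 8.14 FPKM.

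In the DNA methylation class, both called methyltransferase genes were lower in KO. Dnmt1 is the maintenance methyltransferase and Uhrf1 the factor that brings it to hemimethylated DNA. Their promoters are shown because both hold a match to the E2F letters TTTCGCGC, E2F being the factor family of the S phase programme, while Dnmt1 alone passed the test in KO against WT. They are taken from RefSeq (GRCm38.p6), at chr9:20952574-20952873 (minus strand) for Dnmt1 and chr17:56304063-56304362 (plus strand) for Uhrf1, and capitals mark matches to TTTCGCGC or its variant TTTGGCGC on either strand.
Dnmt1: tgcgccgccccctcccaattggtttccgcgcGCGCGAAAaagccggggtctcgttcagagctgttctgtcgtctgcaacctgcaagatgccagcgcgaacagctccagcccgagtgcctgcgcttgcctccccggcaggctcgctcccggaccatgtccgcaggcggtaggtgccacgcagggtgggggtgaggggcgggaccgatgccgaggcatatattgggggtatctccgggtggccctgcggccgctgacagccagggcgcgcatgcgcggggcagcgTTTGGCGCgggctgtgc
Uhrf1: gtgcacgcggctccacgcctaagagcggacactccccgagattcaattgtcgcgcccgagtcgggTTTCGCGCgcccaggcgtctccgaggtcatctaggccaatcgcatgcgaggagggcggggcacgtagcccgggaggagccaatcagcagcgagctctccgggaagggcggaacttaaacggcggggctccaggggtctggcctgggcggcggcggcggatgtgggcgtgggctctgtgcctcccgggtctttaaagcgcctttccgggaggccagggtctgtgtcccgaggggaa
The letters TTTCGCGC occur in 0.323% of the 32851 promoter windows. Among the 68 windows of the 45 matched genes, they occur in 1 of the 3 of Dnmt1 and 1 of the 2 of Uhrf1. The windows shown are those that hold the match. These 68 windows had a median of 24 CpG, beside 7 over all windows, and the letters themselves contain CpG. The variant occurs in 0.514% of all windows and in 1 window each of Cbx3, Dnmt1 and Ezh2. Matches describe letters and not sites that a factor was measured to bind.

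Dnmt1 (gene22623, chromosome 9, 20907205 to 20959888) measured 52.2, 52.4 and 54.99 FPKM in KO, 71.4, 70.7, 79.5 and 74.9 in Het and 67.3, 77.1, 72.3 and 83.3 in WT. KO was below all other libraries, and Dnmt1 fell in KO against WT (log2 difference -0.39, SE 0.07, adjusted p = 0.000618) and was not past the threshold in Het against WT (-0.02, adjusted p = 0.805). Dnmt3b (gene5539, chromosome 2, 153649165 to 153687730), a de novo methyltransferase of early embryos, was at the low end of what was measured, with 0.798, 1.15 and 0.700 FPKM in KO, 1.68, 1.81, 1.82 and 1.80 in Het and 1.68, 2.05, 1.79 and 2.47 in WT. KO again lay below all others, and Dnmt3b fell in KO against WT (log2 difference -0.62, SE 0.11, adjusted p = 0.000711). At this level the pseudocount of 1 shrinks the difference, which was -1.02 with a pseudocount of 0.1. The other de novo enzyme gene, Dnmt3a, passed in no comparison and stayed between 3.93 and 5.57 FPKM.

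Uhrf1 measured 62.6, 69.7 and 73.1 FPKM in KO, 76.6, 77.2, 86.1 and 86.0 in Het and 51.2, 68.1, 55.5 and 80.1 in WT. Its WT libraries spanned the KO range, and KO against WT did not pass (0.22, adjusted p = 0.167), whereas the rise in Het (0.36, adjusted p = 0.025) was lost with no filter on low values or without Het 3, Het 4, WT 1 or WT 3 (adjusted p = 0.0548 to 0.0698). TET enzymes oxidise 5-methylcytosine. Tet1 was near the detection filter, at 0.874, 0.753 and 0.665 FPKM in KO, 0.857, 0.820, 0.867 and 0.797 in Het and 1.35, 1.301, 1.32 and 0.9998 in WT. All KO and Het values were below all WT values, and Tet1 fell in KO (-0.30, adjusted p = 0.0165), lost in a fit of only the groups compared or without KO 3 or KO 4 (adjusted p = 0.0505 to 0.0751), and in Het (-0.29, adjusted p = 0.0146). With a pseudocount of 0.1, Tet1 was at -0.54 in KO and -0.52 in Het. Tet3 rose in Het (0.29, adjusted p = 0.0299), lost with no filter on low values, in a fit of only the groups compared or without Het 1, Het 3, Het 4, WT 1 or WT 3 (adjusted p = 0.0537 to 0.0839), with 7.54 to 8.52 FPKM in Het against 5.25 to 7.78 in WT. Tet2 passed in no comparison.

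The methyl-CpG-binding domain gene Mbd1 measured 15.1, 15.1 and 16.3 FPKM in KO, 19.6, 17.8, 17.6 and 17.1 in Het and 11.3, 12.02, 10.99 and 14.0 in WT. WT was below both other groups, and Mbd1 rose in KO (log2 difference 0.43, SE 0.08, adjusted p = 0.00115) and in Het (log2 difference 0.54, SE 0.07, adjusted p = 0.000183). Mbd2, a reader of the NuRD corepressor complex, rose in Het against WT (0.36, adjusted p = 0.00268), with 34.3 to 36.6 FPKM in Het against 24.5 to 28.9 in WT, a call lost with a GC correction (adjusted p = 0.138). Mbd3, its paralog in a distinct form of NuRD, passed in no comparison, and its WT libraries measured 51.6, 113, 64.7 and 152 FPKM.

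Het lay off the midpoint of KO and WT for about the same share of these genes as of all genes. Against this midpoint on the log2 scale, 15 of the 52 were higher and 8 lower in Het (44.2% called), beside 44% of all genes called. Among the called genes, the largest positive values were those of Suv39h1 (0.60, SE 0.04, adjusted p = 1.82e-06), Kdm6b (0.56, adjusted p = 0.0131) and Rnf2 (0.53, adjusted p = 0.000301). The most negative of the called genes were Cbx7 (-0.84, adjusted p = 0.000185, as a sum over loci), Cbx5 (-0.44, adjusted p = 0.000536) and Aebp2 (-0.41, adjusted p = 0.00019), and Phc2 did not pass at -0.45 (adjusted p = 0.0655). By class, 5 Polycomb genes were higher and 5 lower than the midpoint (35.7% called), against 6 and 3 of the H3K9 genes (64.3%) and 4 and none of the DNA methylation genes (40%). Of all genes, 21.3% were higher and 22.8% lower.

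Replicates of WT differed from each other along the base composition of the transcripts. The 52 genes' longest transcripts held between 38.2% and 62.9% G and C. For the 12 genes with at least 55% the median ratio of WT 4 to WT 1 was 2.03 (range 0.848 to 3.21), and for the 40 others it was 0.919 (range 0.692 to 2.94). Across the 52 genes, Pearson's r between GC content and the log2 ratio of WT 4 to WT 1 was 0.85, that for KO 4 to KO 1 was 0.68 and that for Het 4 to Het 1 was 0.37. These are descriptions, since the points of each share a pair of libraries. The genes with the widest WT spread include Mbd3, Ehmt2, Cbx8, Kdm4b, Ring1 and Phc2.

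After a correction for GC content, chosen after seeing the data, 17 of the 52 rose and 9 fell in KO against WT, beside 7765 called of all 13318 genes tested. Trim28 was then at 0.07 (adjusted p = 0.725) and Cbx2 at 0.14 (adjusted p = 0.232), so both calls ended. Kdm6b (0.23, adjusted p = 0.0497), Phc2 (0.29, adjusted p = 0.00243), Cbx5, Rbbp4 and Setdb1 were then past the threshold. In Het against WT, 19 rose and 9 fell, beside 7513 called of all 13318 genes, with Trim28 (0.33, adjusted p = 0.0621) and Mbd2 (0.30, adjusted p = 0.138) no longer past the threshold. Ezh2, Rbbp7, Bmi1, Phc2, Ehmt2 and Kdm4b were then past it in Het against WT. Phc2 was lower there (-0.32, adjusted p = 0.000967), whereas its chromosome 4 locus alone, without the correction, gave 0.11 (adjusted p = 0.683). Over all alternatives the adjusted p of Trim28 ranged between 0.00672 and 0.725 in KO against WT and between 0.000522 and 0.0621 in Het against WT. That of Mbd2 in Het against WT ranged between 0.000944 and 0.138. Cbx2 in KO against WT ranged between 0.00159 and 0.232, and Phc2 between 0.00243 and 0.218.

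**Figure D5:**
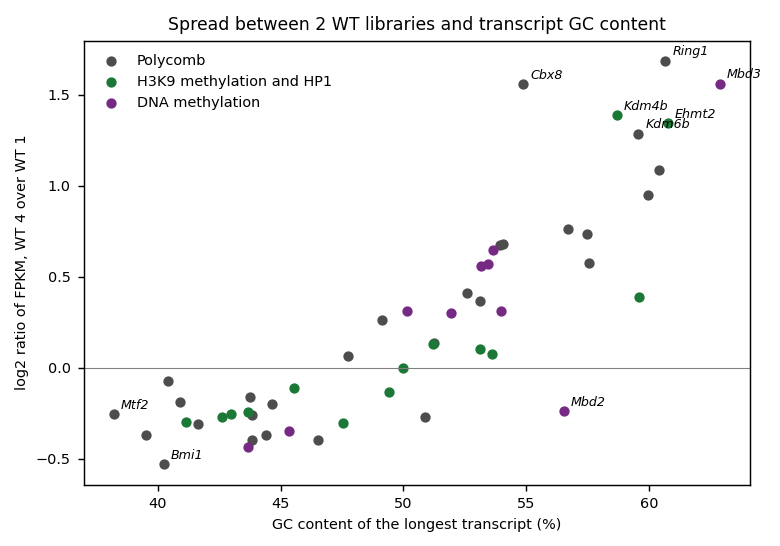
Log2 ratio of FPKM of WT 4 over WT 1 against the GC content in percent of the longest transcript, 1 point per gene, coloured by class. The genes with at least 55% GC have a median ratio of 2.03 between WT 4 and WT 1, and the others one of 0.919.

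The share of called genes among other genes of the same pathways differed between lists. Log2 differences of genes past the threshold are given in brackets. Of 23 further Polycomb genes, 7 rose and 5 fell in KO against WT (52.2%, beside 47.1% of all genes) and 5 rose and 8 fell in Het against WT (56.5%, beside 43.8%). The H2A deubiquitinase gene Bap1 had 16.4, 17.99 and 16.8 FPKM in KO, 27.3, 26.1, 26.3 and 26.9 in Het and 26.6, 32.3, 31.5 and 35.5 in WT, and was lowest in KO (-0.74, adjusted p = 1.62e-05). E2f6, whose product belongs with PCGF6 to a variant PRC1, rose in KO (0.72), as did Rybp (0.61), a core subunit of variant PRC1, while Skp1a fell (-0.62). In Het the largest were the demethylase gene Kdm6a (1.13), Auts2 (0.85), Bcor (0.78), a corepressor of variant PRC1, and Yaf2 (-0.63), the paralog of Rybp. Kdm6a, Bcor and Bcorl1 (0.53), 3 of the 5 that rose in Het, are X-linked, and the Het libraries are those with Xist.

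Of 24 further H3K9 genes tested, 9 rose and 7 fell in KO against WT (66.7%, beside 47.1% of all genes) and 9 rose and 5 fell in Het against WT (58.3%, beside 43.8%). The X-linked Phf8 and Atrx are among those that rose in Het. The demethylase-like gene Hr fell in KO (-1.31) and in Het (-1.18), Mecom rose in KO (0.92), as did Zfp644 (0.66), and Mphosph8 of the HUSH silencing complex fell in KO (-0.73). In Het, Chaf1b (0.93), a chromatin assembly subunit, Smarcad1 (0.69), a remodeller, and the demethylase gene Kdm7a (0.69) rose. Of 22 further DNA methylation genes tested, 4 rose and 5 fell in KO against WT (40.9%) and 5 rose and 7 fell in Het against WT (54.5%), the X-linked Zbtb33 among those that rose in Het. Tdg, the glycosylase that completes TET-driven demethylation, fell in KO (-0.83), as did Trdmt1 (-0.75), whereas Zbtb38, a reader of methylated DNA, rose in KO (0.74) and fell in Het (-0.71). Idh2, whose enzyme makes the cofactor of TET and JmjC demethylases, rose in KO (0.84) and in Het (0.72), its relative Idh1 rose in Het (1.12), and Gadd45b fell in Het (-0.74).

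Several of the 52 are most active in dividing cells. Of 35 S phase and proliferation genes, 1 rose and 15 fell in KO against WT (45.7% called, beside 47.1% of all genes; 23.8% of all genes fell), and 5 rose and 9 fell in Het against WT (40%, beside 43.8%). Their summed level was 2114 to 2149 FPKM in KO, 2441 to 2486 in Het and 2534 to 2627 in WT, without overlap. Ccne1 rose in KO (1.27) and in Het (1.95), Ccnb1 fell in KO (-0.73) and in Het (-0.85), while Bub1 fell in KO (-0.85) and Ccne2 in Het (-0.60). The part of proliferation in the falls of Dnmt1 and Suz12 was not tested.

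Few of the listed targets of these systems could be tested. Of 19 germline genes that DNA methylation silences in somatic cells, 17 were under 1 FPKM in every library, and the summed level of the list was 3.31 to 4.24 FPKM in KO, 2.91 to 4.30 in Het and 4.06 to 5.06 in WT. Sycp1 and Sycp3 could be tested, and Sycp1 fell in Het against WT (-0.54, adjusted p = 0.0062). At the locus of the Polycomb targets Ink4 and Arf, Cdkn2b rose in KO (0.35, adjusted p = 0.00588) and fell in Het (-0.58, adjusted p = 0.000163), with 39.3, 42.6 and 34.3 FPKM in KO, 21.6, 21.0, 20.5 and 22.2 in Het and 33.0, 30.0, 30.2 and 36.0 in WT. Cdkn2a measured 109.9 to 185 FPKM in KO, 107 to 173 in Het and 57.4 to 183 in WT, and passed in neither comparison with WT. Of the 4 targets tested, 1 was thus called in KO against WT and 2 in Het against WT, beside 47.1% and 43.8% of all genes.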

How the data were processed

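Poly(A)-selected RNA of 3 KO, 4 Het and 4 WT libraries was sequenced. Per the submitters' processing notes, reads were aligned with TopHat2 2.1.0 to GRCm38.p4 and the authors deposited FPKM per gene locus from Cufflinks 2.2.1; Cuffdiff is named without a version. Each table holds 48892 loci and gives no read counts, which precluded count models. Tables were matched on locus ID (31 symbols in the WT 1 table had turned into dates), and FPKM was summed per symbol; 5 of the 52 genes have several loci. Libraries were scaled with median-of-ratios factors of 0.937 to 1.04, computed on 13981 genes. Genes with at least 1 scaled FPKM in at least 3 libraries were kept, and log2 of FPKM plus 1 entered a limma model (version 3.58.1, R 4.3.3; 1 mean per group, all libraries, moderation with a trend), with Benjamini-Hochberg adjustment over 14948 genes and a threshold of 0.05. The fit was tested on simulated data. FPKM printed per library are as deposited, without this scaling.

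The genes and lists were chosen with earlier results of these data known. Genes called with an absolute log2 difference of at least 0.5 are given per library; of each further list, up to 4 called genes with the largest difference per comparison are named, except 1 gene that is not reported here. Other named genes were chosen after their values were seen. FPKM carry no depth, which was estimated from the steps between values under 0.3 FPKM. Alternatives were pseudocounts of 0.1 and 0.5, other filters and scalings, the primary locus only, no trend, only the groups compared, a replicate block, each library left out and, chosen after seeing the data, a GC correction with a fit per library on the longest transcript. Promoter windows, from RefSeq (GRCm38.p6), were searched for letters on both strands.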

Additional observations from a re-analysis of the deposited data

Results flagged for a closer look

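In 4 of the 104 combinations of a gene and a group of 4 libraries, 1 library stood far from the other 3 relative to the group's range. Chance gives about 1 in 20. Ring1 measured 2.89 FPKM in Het 2, against 4.50 to 4.68 in the other Het libraries. Pcgf3 measured 28.5 FPKM in Het 2, against 25.8 to 26.1 in the others, and all Het values of Pcgf3 were below all KO values. Kdm2b measured 19.0 FPKM in WT 4, against 14.3 to 15.1 in the others, and its fall in KO against WT was lost without WT 4 (-0.18, adjusted p = 0.0742; over all alternatives adjusted p was 0.00568 to 0.192). Tet1 measured 0.9998 FPKM in WT 4, against 1.301 to 1.352 in the other WT libraries. Its fall in KO against WT held without WT 4 (-0.36, adjusted p = 0.00525). Over the 18 alternatives that could test Tet1, adjusted p was 0.00521 to 0.0751.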

How the results depend on the processing

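No called gene among the 52 changed direction under any alternative run. Of the 23 called in KO against WT, 16 were past the threshold in every alternative that could test them, as were 15 of 24 in Het against WT and 16 of 21 in KO against Het. The same share over all called genes was not computed, so these counts do not set the 52 apart. Low genes could be tested in fewer alternatives, such as Dnmt3b in 21 and Tet1 in 18 of 22 in KO against WT. The count of lower genes moved most. Without scaling it was 13 in KO against WT and 16 in KO against Het, with a fit of only the groups compared 4 and 14, and with the GC correction 16 in KO against Het and 14 for Het against the midpoint, beside 8 in each main count. Over fits without 1 library it was 5 to 10 in KO against WT and 5 to 8 in Het against WT. With only the groups compared, 5964 of all 14458 genes were called in KO against WT and 7629 of 14505 in KO against Het. With the GC correction, 7557 of 13318 were called in KO against Het and 7651 for Het against the midpoint. Of all called genes, 37.1% were higher without scaling in KO against WT (49.4% with it) and 36.5% in KO against Het (49.8%), and with upper quartile scaling 39.9% in Het against WT (49.5%). The cause was not tested.

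The replicate numbers were not taken to pair the libraries, since not every pair correlated: of 10 same-numbered pairs, 5 had a correlation of deviations over 0.1 (range -0.10 to 0.35), among them the 3 pairs numbered 4, and 6 of 11 libraries matched best with their own number. With the replicate block, 17 of the 52 rose and 8 fell in KO against WT, 17 and 8 in Het against WT, 14 and 8 in KO against Het, and 16 and 11 for Het against the midpoint. Of all 14948 genes, 7294, 6993, 6879 and 7022 were called in the same order. The block ended the Cbx2 call in KO against WT (adjusted p = 0.0728) and added Cbx8, Phc2 and Mbd2 in KO against WT, Ezh2 in Het against WT, Phf19 in KO against Het, and Phf19, Cbx6, Phc2 and Uhrf1 for Het against the midpoint.

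The authors' intervals at the primary chromosome locus were widest for Ring1, Cbx7 and Pcgf1, with median half-widths of 49.2%, 39.9% and 34.0%. The levels of Ring1 and Cbx7 are sums over several loci, and these widths are not intervals on the sums. The primary locus held 22.5% of the summed Ring1 FPKM and 25.0% of that of Cbx7. The parts of depth and of the division of reads among loci in these widths were not tested.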
